A study of Homo sapiens with 45 samples.

Results

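Recurring long contacts were pairs of DNA fragments on 1 chromosome that lay more than 500 kb and up to 2 Mb apart and were called in at least 2 of 3 pooled interaction profiles of human pluripotent cells. Members were selected on their CHiCAGO scores, and a score of 5 or more counts as a call. This score measures how far the reads that join 2 fragments exceed a background model. Only pairs whose other end was not itself a captured fragment were taken. The rule gave 3977 contacts of the 434524 pairs listed in all, or 13.5% of the 29510 listed pairs of that length and kind. The remaining 25533 long pairs were called in 1 profile only.

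The assay was poised-enhancer capture Hi-C on HNES1, an established human embryonic stem cell line, harvested on day 5 of the transition from naive to primed pluripotency. Chromatin was fixed, cut with DpnII and ligated, and captured fragments (the baits) were pulled down with RNA probes against poised enhancers. The conditions were UNC6852 at 2.5 µM, a compound that marks EED for degradation, UNC1999 at 1 µM, which inhibits EZH1 and EZH2, and the solvent DMSO, each present from 24 h before day 0. EED, EZH1 and EZH2 are subunits of Polycomb repressive complex 2 (PRC2). Each condition had 15 libraries from 3 biological replicates, spread over 2 batches, and 1 column of scores pooled over them. No difference between conditions could therefore be tested, no spread between replicates is given, and since the doses differ the compounds are not compared in strength. The read depth of the profiles was unknown, and the values hold no measure of EED, of histone methylation or of cell identity.

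Poised enhancers and the promoters of developmental regulators carry Polycomb marks in pluripotent cells, and regions so marked can touch each other over long stretches of chromatin. Regulators such as the HOX, PAX and forkhead genes, alone or in clusters, often lie in or beside wide gene-poor intervals. Distant elements in these intervals act on them in the embryo. Most contacts of a captured fragment lie near it, so contacts of this length are a thin outer layer of its map.

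The ends that fell on the start of a well-known gene are shown first, because these genes recur in the results. The promoters below run from 250 bases before to 50 bases after the start, 5′ to 3′ on the strand of the gene, and come from RefSeq (GRCh38.p14). CpG dinucleotides, which are dense in promoters that Polycomb occupies, are in capitals. HOXD13 lies at chr2:176092471-176092770 on the plus strand, and EVX2 at chr2:176083913-176084212 on the minus strand. PAX9 lies at chr14:36657318-36657617 on the plus strand, NKX2-1 at chr14:36520183-36520482 on the minus strand, PRDM8 at chr4:80185020-80185319 on the plus strand and KCNH1 at chr1:211134099-211134398 on the minus strand.
HOXD13: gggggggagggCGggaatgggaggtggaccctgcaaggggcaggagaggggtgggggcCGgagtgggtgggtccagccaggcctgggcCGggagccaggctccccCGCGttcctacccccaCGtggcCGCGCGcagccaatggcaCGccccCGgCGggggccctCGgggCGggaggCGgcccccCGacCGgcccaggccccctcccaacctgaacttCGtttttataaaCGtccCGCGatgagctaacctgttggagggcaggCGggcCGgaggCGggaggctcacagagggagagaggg
EVX2: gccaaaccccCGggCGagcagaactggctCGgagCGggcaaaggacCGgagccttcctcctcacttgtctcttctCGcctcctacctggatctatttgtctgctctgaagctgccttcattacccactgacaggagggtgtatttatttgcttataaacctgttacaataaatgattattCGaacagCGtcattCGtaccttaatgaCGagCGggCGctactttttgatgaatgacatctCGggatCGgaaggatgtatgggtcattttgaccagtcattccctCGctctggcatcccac
PAX9: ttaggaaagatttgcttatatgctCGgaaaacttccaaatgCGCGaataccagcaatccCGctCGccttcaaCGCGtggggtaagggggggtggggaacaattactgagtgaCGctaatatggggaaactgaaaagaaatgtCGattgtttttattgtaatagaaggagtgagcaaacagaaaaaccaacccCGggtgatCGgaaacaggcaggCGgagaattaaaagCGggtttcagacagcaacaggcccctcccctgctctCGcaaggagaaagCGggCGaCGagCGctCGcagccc
NKX2-1: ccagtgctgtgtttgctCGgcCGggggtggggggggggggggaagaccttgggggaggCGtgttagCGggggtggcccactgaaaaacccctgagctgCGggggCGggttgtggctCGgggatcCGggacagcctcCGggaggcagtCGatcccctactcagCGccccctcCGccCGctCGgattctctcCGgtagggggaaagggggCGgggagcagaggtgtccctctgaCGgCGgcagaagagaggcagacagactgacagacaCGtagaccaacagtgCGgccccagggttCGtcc
PRDM8: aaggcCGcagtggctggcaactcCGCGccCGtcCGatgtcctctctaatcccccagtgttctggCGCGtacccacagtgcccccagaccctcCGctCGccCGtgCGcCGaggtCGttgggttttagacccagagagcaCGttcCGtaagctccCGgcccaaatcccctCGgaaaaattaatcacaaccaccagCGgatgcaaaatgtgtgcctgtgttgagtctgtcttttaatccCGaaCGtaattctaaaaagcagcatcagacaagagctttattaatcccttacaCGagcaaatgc
KCNH1: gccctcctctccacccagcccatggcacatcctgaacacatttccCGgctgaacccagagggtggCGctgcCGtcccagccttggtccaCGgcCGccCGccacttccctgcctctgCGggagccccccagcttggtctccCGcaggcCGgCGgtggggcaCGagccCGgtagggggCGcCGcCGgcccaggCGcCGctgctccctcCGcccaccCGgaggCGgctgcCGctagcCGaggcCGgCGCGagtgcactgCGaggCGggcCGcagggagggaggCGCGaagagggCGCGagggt

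The start of KCNH1 lay in the bait of 14 recurring long contacts, that of PRDM8 in the bait of 4, and those of EVX2 and HOXD13 in the bait of 3 each. The start of PAX9 lay in the other end of 8 contacts and that of NKX2-1 in the other end of 3. The 6 windows held 15 to 32 CpGs. In all, 43 promoters started in a bait and 51 in an other end of a recurring long contact. Their median ratio of observed to expected CpGs was 0.75 at baits and 0.79 at other ends, against 0.76 over all 15843 promoters matched. The letters AGNGGGCGC, part of a motif of the boundary protein CTCF, were searched on both strands. They stood in 3 of the 43 bait promoters and 7 of the 51 other-end promoters, against 5.54% of all promoters of the same length. A match is a description of letters, not of a bound site.

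The number of profiles that shared a contact was described first. All 3 profiles called 1234 of the 3977 contacts, or 31.0%. UNC6852 and UNC1999 alone shared 1040, UNC6852 and DMSO alone 954, and UNC1999 and DMSO alone 749. Of the members, 3228 were called in UNC6852, 3023 in UNC1999 and 2937 in DMSO. Over all 29510 listed long pairs the shares called were 42.6% in UNC6852, 38.0% in UNC1999 and 37.1% in DMSO. The order of the profiles among the members thus followed their order among all long pairs, and nothing is read from it.

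The scores chose the members, so their levels are a description. The median score was 6.51 in UNC6852, 6.24 in UNC1999 and 6.12 in DMSO, and the highest scores were 45.8, 35.4 and 55.8 in that order. On the asinh scale, which behaves like a logarithm but takes scores of 0, the median of UNC6852 minus DMSO was 0.11, with 2267 members higher and 1710 lower. The median of UNC1999 minus DMSO was 0.04, with 2090 higher and 1887 lower. Over all listed long pairs the medians were 0.00 for both compounds. There, 14780 pairs were higher in UNC6852 than in DMSO and 12579 lower, and 13680 were higher in UNC1999 than in DMSO and 13290 lower. Near the threshold, the second-highest score of the weakest member was 5.0008, and that of the strongest pair outside was 4.9999. There were 1710 members with a second-highest score under 6, and 2702 long pairs stood just outside, from 4 to under 5. The shortest member spanned 500063 bp and the longest 1998950 bp. The nearest eligible pairs beyond the limits spanned 499946 and 2080309 bp.

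Whether a contact seen in 2 profiles was also seen in the one left out could be asked without using the score of that profile. Of the 1983 long contacts called in UNC1999 and DMSO, 62.2% were also called in UNC6852 (exact 95% interval 60.1 to 64.4). Of the 2188 called in UNC6852 and DMSO, 56.4% were also called in UNC1999 (54.3 to 58.5). Of the 2274 called in UNC6852 and UNC1999, 54.3% were also called in DMSO (52.2 to 56.3). Exact (Clopper-Pearson) intervals here and below cover counting error only, and neighbouring contacts are not independent. With equal numbers of long calls per profile the shares were 60.9%, 57.3% and 56.0%. The lowest share in both settings was that of the solvent control, whose calls were also the fewest, but on quantile-normalized scores the order of UNC1999 and DMSO turned, with 60.9%, 53.6% and 58.5%.

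**Figure D1:**
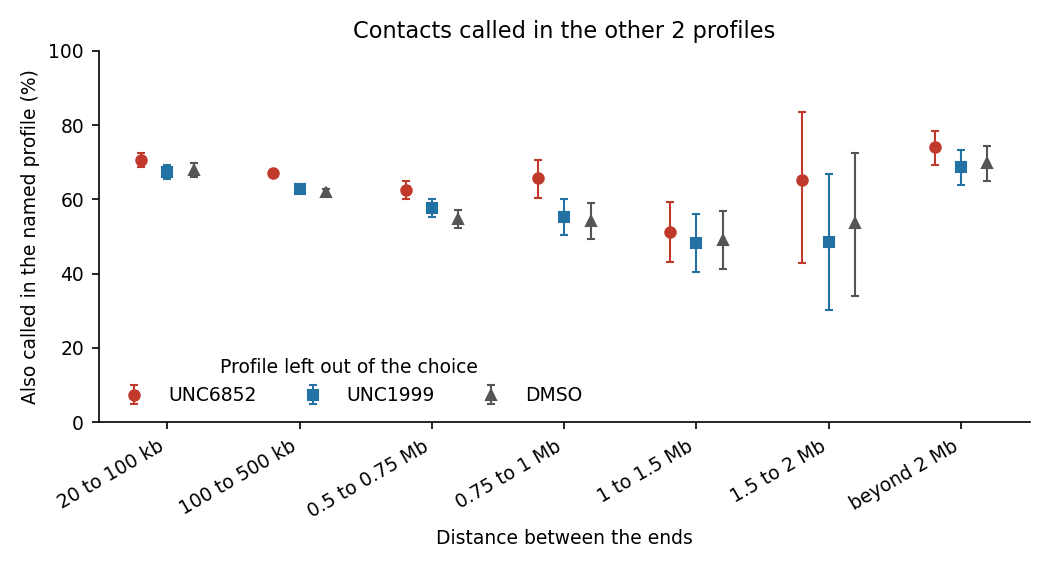
Share of contacts called in both other profiles that were also called in the named profile (y axis, percent), by distance between the ends (x axis), with exact 95% intervals for counting error. Within 0.5 to 2 Mb the shares lie between 48.2% and 65.6%, and the bin from 1.5 to 2 Mb rests on 23 to 31 contacts.

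The shares were lower in this range than on either side of it. Among contacts of up to 500 kb called in the other 2 profiles, 67.7% were also called in UNC6852 (67.0 to 68.4), 63.4% in UNC1999 (62.7 to 64.1) and 63.1% in DMSO (62.3 to 63.8). Beyond 2 Mb the shares were 74.1%, 68.7% and 69.7%, so the interval from 0.5 to 2 Mb held the lowest of the 3 ranges in every profile. The share of listed pairs that recurred was 26.7% up to 500 kb. It was 15.6% from 0.5 to 0.75 Mb, 12.1% from 0.75 to 1 Mb, 8.44% from 1 to 1.5 Mb, 4.06% from 1.5 to 2 Mb and 5.68% beyond. The distances are uneven within the range: 2869 of the 3977 members were shorter than 750 kb and 52 were longer than 1.5 Mb.

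What the members had in common beyond their scores was set against the long pairs called once. Another called pair with both ends within 10 kb of both ends of the contact was present for 93.9% of the members (93.1 to 94.6), against 49.2% of the pairs called once (48.6 to 49.8). Such a neighbour from another bait, which is a separate captured fragment in the same libraries, was present for 79.8% of the members and 40.8% of the pairs called once. The other ends were not captured themselves, but a captured fragment lay within 10 kb of the other end of 846 members. For 708 of these 846 (83.7%) a pair was called in the opposite direction, with both ends within 10 kb. The same held for 1847 of the 4415 pairs called once that had such a captured fragment nearby (41.8%). Members score higher, and higher scores go with more neighbours, so both were compared in bands of the highest score. Between 5 and 7 such an opposite pair was called for 72.4% of these members (65.7 to 78.4) and 39.1% of these pairs called once (37.4 to 40.7). At 10 and over it was called for 89.3% (85.5 to 92.4) and 63.9% (54.1 to 72.9). By the rule that chose them, members of a band still had a second score of 5 or more, which the pairs called once lacked, so these shares are a description.

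**Figure D2:**
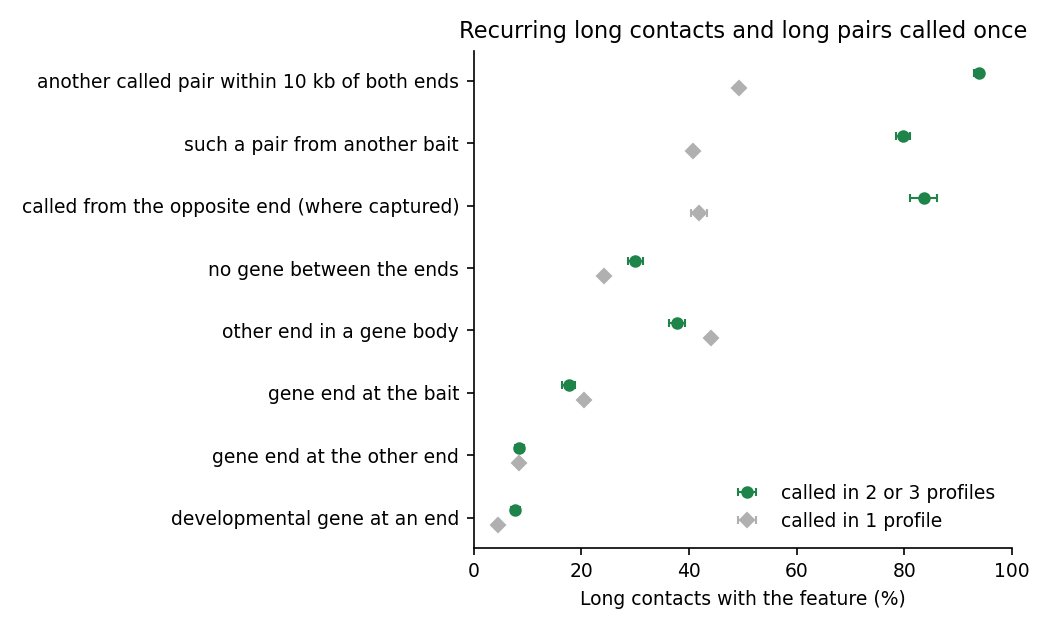
Percent of long contacts with each feature (x axis), for those called in 2 or 3 profiles and those called in 1, with exact 95% intervals for counting error. Neighbouring pairs (93.9% against 49.2%) and opposite pairs (83.7% against 41.8%) separate the sets. Opposite pairs were counted where a captured fragment lay within 10 kb of the other end. A gene end at the other end does not separate the sets (8.45% against 8.31%).

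Genes were rare at the ends. A gene end means that the annotated start or stop of a protein-coding gene lay within 1000 bp of the fragment. Baits of members carried one in 17.7% (16.5 to 18.9), against 20.5% of pairs called once. Other ends carried one in 8.45% (7.60 to 9.36), against 8.31%. In 64 members there was a gene end at both ends. The other end overlapped a gene body, in part or in full, in 37.8% of the members and 44.1% of the pairs called once. The stretch between the ends held no whole gene in 30.0% of the members (28.6 to 31.4) and 24.3% of the pairs called once (23.8 to 24.8). Its median density was 1.70 genes per Mb for the members and 2.34 for the pairs called once. A gene of the 6 developmental lists, which hold HOX, other homeobox, neural, mesendodermal, signalling and axon guidance genes, lay at an end of 304 members. That is 7.64% (6.84 to 8.51), against 4.59% (4.34 to 4.86) of the pairs called once. With only the strongest contact of each contact locus the share among members was 4.81%. The pairs called once were not reduced in this way, so that share has no counterpart among them.

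Members clustered. Contacts whose lower and upper ends both lay within 10 kb of each other were joined into a locus, and the 3977 contacts formed 1538 loci. Of these, 955 held 1 contact, 188 held 5 or more and 61 held 10 or more. The 61 largest loci took in 1212 contacts, 30.5% of all, and 51.2% of their contacts were called in all 3 profiles, against 9.32% of the lone contacts. The same scores set both the size of a locus and the calls in it, so this contrast is a description. A developmental gene lay at a member end in 23 of the 61 and in 35 of the 955, although large loci also cover more fragments. In 54 loci, members came from baits on both sides. Of these 61 loci, 46 had a higher median score in UNC6852 than in DMSO and 43 in UNC1999 than in DMSO. By calls the split was weaker. UNC6852 called more members than DMSO in 34 loci and fewer in 17, and UNC1999 more in 33 and fewer in 20. Over all listed long pairs 42.6% were called in UNC6852, 38.0% in UNC1999 and 37.1% in DMSO. The same scores chose the members, so nothing is read from these counts. Contacts within a locus overlap and share baits, so they are not replicates of it.

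**Figure D3:**
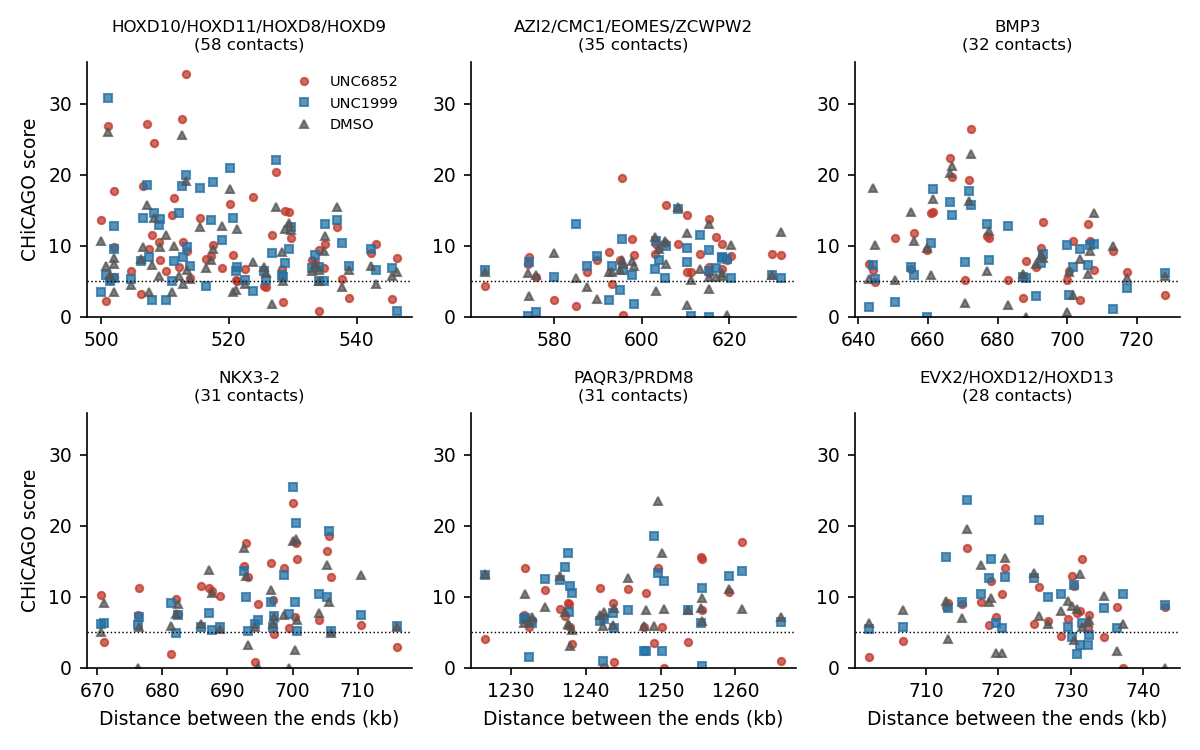
CHiCAGO score (y axis) against distance between the ends in kb (x axis) for every contact of 6 large loci with a developmental gene, with 1 marker per profile and a dotted line at the call threshold. The profiles intermingle in each panel, and the HOXD panel reaches the highest score, 34.1 in UNC6852.

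The HOXD cluster, whose genes pattern the limbs and the trunk axis, divided by side. In the embryo HOXD is flanked by a regulatory domain on each side. All 20 recurring long contacts of EVX2, HOXD13 and HOXD12, at the HOXD13 end of the cluster, ran to lower coordinates, over 684 to 769 kb. All 36 of HOXD11, HOXD10, HOXD9 and HOXD8 ran to higher coordinates, over 501 to 1034.5 kb. HOXD4, HOXD3 and HOXD1 had none, but had 1, 2 and 2 long pairs called once, all to higher coordinates. These genes lie nearer to the stretch at higher coordinates named below, and the rule leaves out contacts of up to 500 kb. Their lack of members is therefore not read as a lack of contact. Among long pairs called once, the 16 of EVX2, 26 of HOXD13 and 6 of HOXD12 all ran to lower coordinates. Of the 25 called once at HOXD9, 23 ran to higher coordinates and 2 to lower, and at HOXD11 3 ran higher and 2 lower. The change of side thus fell between the neighbouring genes HOXD12 (chr2:176099795-176102489) and HOXD11 (chr2:176107280-176115679).

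Towards higher coordinates, 58 contacts from 14 baits joined chr2:176105740-176156039 to chr2:176627222-176676386. The latter stretch holds no coding gene, and the nearest one is MTX2, 289 kb away. Baits on both sides reported the 58 contacts, and 33 were called in all 3 profiles. The strongest by the mean of the 3 scores, from a bait between HOXD8 and HOXD4, scored 26.9 in UNC6852, 30.9 in UNC1999 and 26.0 in DMSO. The highest single score was 34.1 in UNC6852, in a contact over 513 kb that had 19.9 in UNC1999 and 19.2 in DMSO. The contact of the HOXD8 bait itself scored 27.8, 18.5 and 25.6. Towards lower coordinates, 28 contacts from 14 baits joined chr2:176079207-176105140 to chr2:175348053-175386926, 166 kb from ATP5MC3. EVX2, a homeobox gene beside HOXD13, gave the strongest of them over 716 kb, with 16.9 in UNC6852, 23.6 in UNC1999 and 19.5 in DMSO. The profiles kept no common order between these 3 contacts.

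On chromosome 14, FOXA1, a pioneer factor of endoderm, was joined to 2 neighbouring regulators. PAX9, a paired-box regulator of the pharyngeal pouches, lay in the locus chr14:36637518-36670715, which met chr14:37585189-37606215 in 25 contacts. The median score was 9.33 in UNC6852, 11.7 in UNC1999 and 6.67 in DMSO. The strongest came from a bait within the body of FOXA1 and scored 29.6, 25.3 and 10.4. From 2 baits at FOXA1 to the fragment holding the PAX9 start printed above, the scores were 16.4, 13.9 and 19.5 over 931 kb, and 16.9, 19.2 and 5.83 over 929 kb. Of these 2 baits, DMSO thus had the highest score in one and the lowest in the other. NKX2-1, a regulator of thyroid, lung and forebrain, met the same FOXA1 fragments over 1060 to 1084 kb in 16 contacts, 5 of them called in all 3 profiles. Their median was 7.85 in UNC6852, 5.29 in UNC1999 and 7.36 in DMSO. FOXA1 had 15 recurring long contacts in all, each to lower coordinates, PAX9 had 8 and NKX2-1 had 7.

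On chromosome 4, NKX3-2, a homeobox regulator of the axial skeleton, had 17 recurring contacts in 6 loci, over 612 to 873 kb, and 2 of these loci were among the leading 15. In the nearer, 31 contacts joined chr4:13529423-13559895 to chr4:12830283-12880672, 487 kb from the gene RAB28. The strongest scored 23.2 in UNC6852, 25.5 in UNC1999 and 17.8 in DMSO over 700.1 kb. In the farther, 10 contacts reached chr4:12722662-12743558, and the strongest, over 818 kb, scored 23.3, 20.8 and 25.8. All 17 with an end at NKX3-2 came from baits and ran to lower coordinates. Further along this chromosome, PRDM8, a histone methyltransferase-family regulator of neurons, met a gene-free stretch beside PAQR3 at chr4:78939952-78967551 in 31 contacts over 1227 to 1266 kb. Here UNC6852 called 23 of the 31, UNC1999 25 and DMSO 30. Over all members the shares called were 81.17%, 76.01% and 73.85% in that order. The strongest contact of the locus scored 14.1 in UNC6852, 13.4 in UNC1999 and 23.5 in DMSO. Another bait of PRDM8 scored 15.3, 11.3 and 9.84, and another 4.10, 13.1 and 13.2. FGF5, a growth factor gene on the pluripotency list, touched the same stretch over 1306.5 kb, with 7.70 in UNC6852, 5.28 in UNC1999 and 10.1 in DMSO. In the other direction FGF5 scored 7.73, 10.4 and 0.75 with a fragment 782.5 kb away in the BMP3 region. BMP3, a bone morphogenetic protein, lay in a locus of 32 contacts to the body of CFAP299, with a strongest contact of 26.4 in UNC6852, 15.7 in UNC1999 and 22.9 in DMSO.

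Other regulators formed loci of their own. EOMES, the T-box regulator of early mesendoderm, met the region of AZI2, CMC1 and ZCWPW2 in 35 contacts over 564 to 632 kb. Its median was 8.62 in UNC6852, 6.90 in UNC1999 and 6.31 in DMSO. The MEF2C end, a muscle and neural regulator, met 2 stretches without a coding gene in 57 contacts over 878 to 948 kb and in 26 over 524 to 576 kb. In the first, UNC6852 called 53 contacts, UNC1999 45 and DMSO 44. The ISL1 locus, of a LIM homeobox regulator of heart and motor neurons, held 18 contacts. Of these, 17 were called in UNC6852, 16 in UNC1999 and 12 in DMSO. Over all members the shares called were 81.17% in UNC6852, 76.01% in UNC1999 and 73.85% in DMSO. These loci were picked after their values were seen, so nothing is read from their counts by profile. SNAI2, a repressor known from neural crest migration, had 21 recurring contacts in 7 loci, all to lower coordinates. Its leading locus had medians of 11.6 in UNC6852, 9.22 in UNC1999 and 6.49 in DMSO. LHX2, a LIM homeobox regulator of forebrain and eye, had 15 contacts in 5 loci, and 2 of these were called in all 3 profiles. EN1 had a locus of 20 contacts and CDX2 one of 15, and both are homeobox regulators.

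The gene lists were described by counts. HOX genes had 64 recurring long contacts at 13 of 41 genes, other homeobox regulators 100 at 24 of 128, and mesoderm and endoderm regulators 74 at 13 of 88. Neural and neural crest regulators had 31 at 9 of 79, signalling genes 28 at 12 of 130, and axon guidance and adhesion genes 12 at 3 of 91. Pluripotency genes had 6 at 3 of 49 and housekeeping genes 2 at 1 of 49. Polycomb and Trithorax subunits had none at 57 genes, with 16 long pairs called once. Of all listed long pairs at HOX genes, 30.2% recurred (24.1 to 36.9), at mesendodermal regulators 23.3% (18.8 to 28.4) and at other homeobox regulators 21.9% (18.2 to 26.0). The HOX share came mostly from 1 cluster. HOXD with EVX2 held 56 of the 64 members and 38.1% of its 147 listed long pairs recurred (30.2 to 46.5), while at the HOX genes outside it 8 of 65 did, or 12.3% (5.47 to 22.8). The share was 16.1% (11.2 to 22.0) at neural regulators and 13.7% (9.32 to 19.2) at signalling genes. It was 11.3% (5.99 to 18.9) at axon guidance genes and 10.2% (3.82 to 20.8) at pluripotency genes. At Polycomb and Trithorax subunits it was 0.0%, with an interval of up to 20.6%. All these intervals hold the 13.5% over all long pairs. Housekeeping genes had only their 2 members as listed long pairs. The lists were not matched for score or distance.

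The median asinh difference between UNC6852 and DMSO was -0.07 over the HOX members, 0.12 over other homeobox regulators, 0.21 over mesendodermal regulators and -0.07 over neural regulators. It was 0.11 over signalling genes and -0.03 over axon guidance genes, beside 0.11 over all members. Between UNC1999 and DMSO the same medians were 0.01, -0.04, 0.02, 0.14, -0.05 and -0.23, beside 0.04. HOX members were higher in UNC6852 in 31 of 64 cases and in UNC1999 in 32 of 64.

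Single contacts stood for each list. MECOM, a zinc-finger regulator of blood stem cells, met a fragment within its own body over 518 kb with 16.1 in UNC6852, 26.6 in UNC1999 and 16.4 in DMSO. FZD8, a WNT receptor, scored 18.4, 3.005 and 6.33 over 1241 kb, and 4.40, 6.84 and 13.5 with the adjoining fragment over 1235.5 kb. These fragments touch each other, and the profile with the highest score differed between them. EPHA3, an ephrin receptor, scored 11.2 in UNC6852, 7.54 in UNC1999 and 12.1 in DMSO over 888 kb, and 10.2, 7.27 and 9.83 over 906 kb. The housekeeping contacts joined TBP, the TATA-binding protein gene, to 1 bait over 834 and 851 kb, with 10.2, 14.99 and 7.86 for the nearer. FOXA1 also reached a fragment beside PAX9 over 937 kb with 22.5 in UNC6852, 16.6 in UNC1999 and 13.7 in DMSO. IRX5 and IRX3, homeobox neighbours of the Iroquois family, were the only remaining pair with a developmental gene at both ends. They scored 5.61 in UNC6852, 6.97 in UNC1999 and 1.10 in DMSO over 644 kb.

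**Figure D4:**
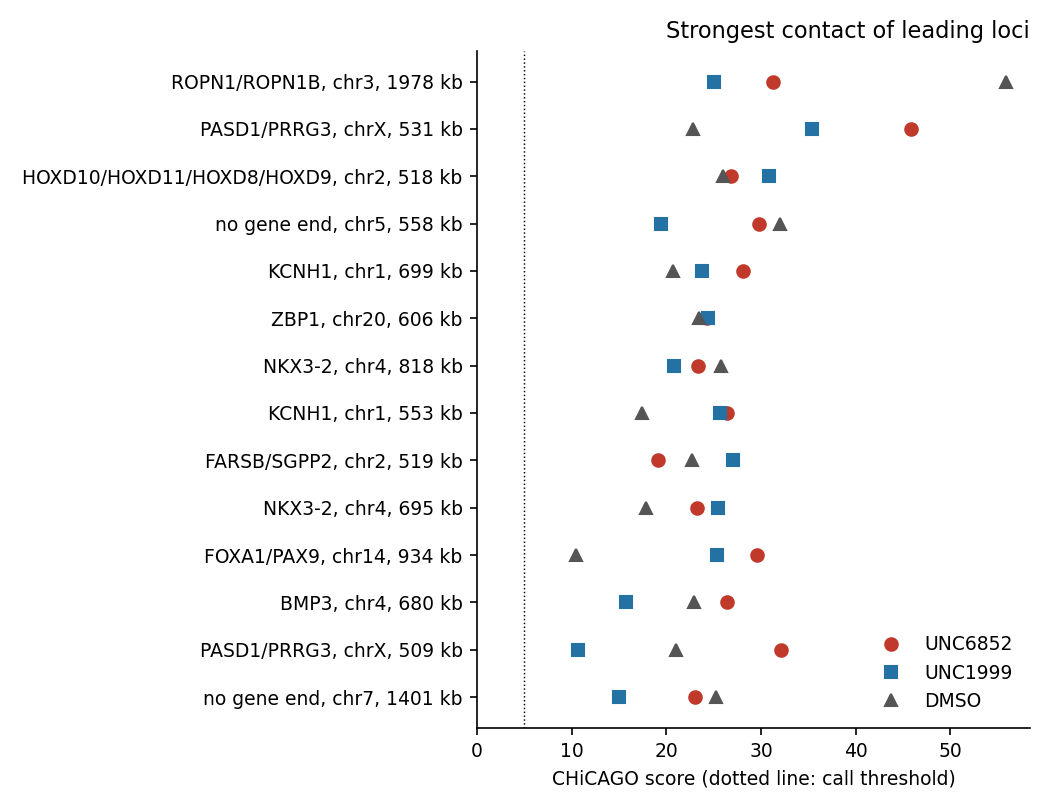
CHiCAGO scores (x axis) of the strongest contact of 14 of the 15 loci with the highest mean score, with 1 marker per profile and a dotted line at the call threshold. Labels give genes at member ends, chromosome and median distance. All markers lie above 10, and the ROPN1 pair reaches 55.8 in DMSO.

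The strongest contact of all joined ROPN1 to ROPN1B, sperm protein genes on chromosome 3, over 1978 kb. It scored 31.2 in UNC6852, 25.1 in UNC1999 and 55.8 in DMSO and stood alone in its locus. The genes are near-identical copies. Their RefSeq promoters (GRCh38.p14), at chr3:123992075-123992374 on the minus strand and chr3:125968928-125969227 on the plus strand, share an unbroken run of 280 of 300 bases. The windows are printed with the bases outside that run in capitals, to show how little tells the copies apart.
ROPN1: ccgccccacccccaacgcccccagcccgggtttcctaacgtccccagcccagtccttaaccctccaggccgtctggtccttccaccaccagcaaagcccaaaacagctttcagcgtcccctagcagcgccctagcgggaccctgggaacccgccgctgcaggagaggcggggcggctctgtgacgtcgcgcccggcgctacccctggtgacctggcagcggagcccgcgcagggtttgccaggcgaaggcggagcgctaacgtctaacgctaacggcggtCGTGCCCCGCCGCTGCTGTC
ROPN1B: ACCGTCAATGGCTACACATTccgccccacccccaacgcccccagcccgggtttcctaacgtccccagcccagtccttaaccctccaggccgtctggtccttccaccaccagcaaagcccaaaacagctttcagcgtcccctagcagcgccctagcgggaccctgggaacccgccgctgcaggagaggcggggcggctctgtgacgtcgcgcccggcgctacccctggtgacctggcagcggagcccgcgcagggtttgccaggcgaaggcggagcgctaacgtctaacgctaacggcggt

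The start of ROPN1B lay in the contacted fragment and that of ROPN1 lay 347 bp outside the bait. Reads of near-identical copies can be placed on either of them, so this contact is uncertain.

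Most other leading loci carried no developmental gene. A bait on chromosome X, 22.6 kb from GPR50, met the PASD1 and PRRG3 region over 530 kb with 45.8 in UNC6852, 35.4 in UNC1999 and 22.8 in DMSO. A second bait close by met the same fragment with 32.1, 10.6 and 21.0. The bait at HTR1A, the serotonin receptor gene on chromosome 5, met a gene-free stretch over 559 kb with 29.8 in UNC6852, 19.5 in UNC1999 and 32.03 in DMSO. KCNH1, a potassium channel gene, had 39 recurring long contacts. Its bait at chr1:211133080-211133389 held 23 of them, the most of any bait. Of these, 22 were called in UNC6852, 21 in UNC1999 and 20 in DMSO, beside 81.17%, 76.01% and 73.85% of all members. All 23 lay beyond the far end of KCNH1, and its 2 leading loci fell in the body of HHAT. The strongest scored 28.1, 23.8 and 20.7 over 684 kb, and another 26.4, 25.7 and 17.4 over 546 kb.

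A bait 5.32 kb from ANKRD60 on chromosome 20 met the ZBP1 region with 24.2 in UNC6852, 24.4 in UNC1999 and 23.4 in DMSO, the closest scores among the leading loci shown. SGPP2 and FARSB met a stretch 136 kb from PAX3 in 59 contacts, 44 of them called in all 3 profiles. The strongest scored 19.1 in UNC6852, 27.1 in UNC1999 and 22.7 in DMSO. On chromosome 7, 2 gene-free stretches 1404 kb apart scored 23.0, 15.01 and 25.2, with the nearest coding gene 1294 kb away. The sequences of these stretches were not available, so whether reads there can also be placed elsewhere was not examined. Other baits with many members lay beside FOXC2, a forkhead regulator of mesenchyme, with 20 members, and 14.6 kb from SESN3 on chromosome 11, with 16.

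Contacts that 2 profiles shared and the third lacked were named by rule. Whether reads at these contacts can also be placed on copies elsewhere was not examined. Of the 1040 contacts shared by UNC6852 and UNC1999 alone, DMSO scored under 1 in 210. UNC1999 scored under 1 in 190 of 954, and UNC6852 in 127 of 749. These shares were 20.2%, 19.9% and 17.0%. With DMSO under 1, a contact to CRYGS on chromosome 3 scored 12.4 in UNC6852, 12.9 in UNC1999 and 0.47 in DMSO, and one on chromosome 6 over 869 kb scored 11.3, 10.1 and 0.00. With UNC1999 under 1, contacts on chromosomes 9, 7 and 2 scored 14.0, 13.2 and 11.1 in UNC6852 and 16.7, 11.6 and 10.7 in DMSO. With UNC6852 under 1, contacts on chromosomes 16 and 10 scored 9.80 and 10.4 in UNC1999 and 9.72 and 8.75 in DMSO. The third of this kind joined NKX2-1 to a bait within the body of FOXA1, with 0.24 in UNC6852, 9.30 in UNC1999 and 8.64 in DMSO. In UNC6852 the same NKX2-1 fragment scored 17.9 with another bait at FOXA1, and the fragment next to it scored 10.7 with a further bait there.

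**Figure D5:**
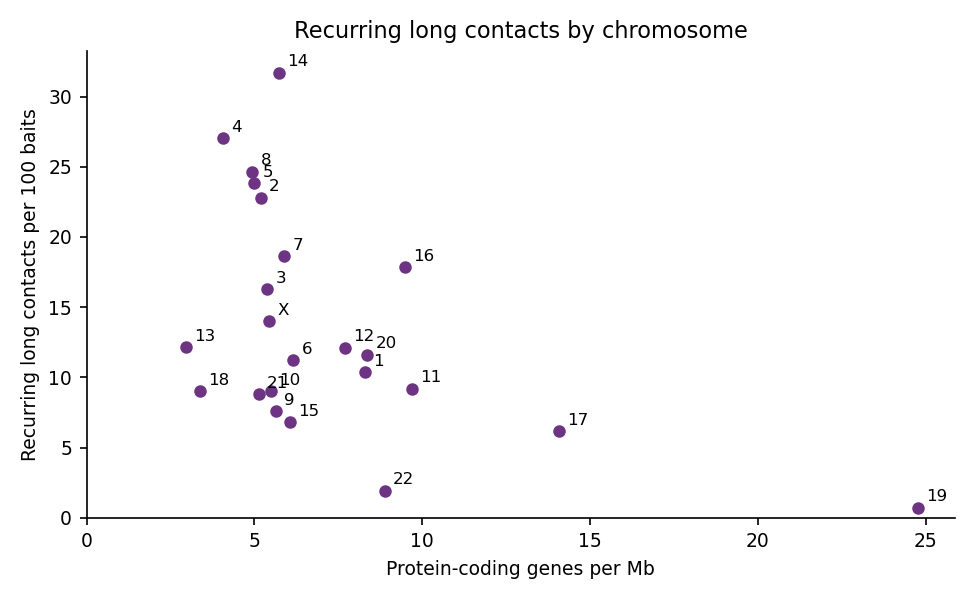
Recurring long contacts per 100 baits (y axis) against protein-coding genes per Mb (x axis), with 1 point per autosome and for X, labelled by chromosome. Genes per Mb are genes divided by the end coordinate of the last gene, so gene-free stretches count as length. Chromosome 14 is highest at 31.7, and chromosome 19, with 24.8 genes per Mb, is lowest at 0.73. Contacts are counted, not loci.

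Chromosomes differed in how many members they carried. Chromosome 14 had 274 recurring long contacts, or 31.7 per 100 baits, chromosome 4 had 27.1 and chromosome 8 had 24.7. Chromosome 17 had 6.16, chromosome 22 had 1.94 and chromosome 19 had 0.73, with 5 contacts from 682 baits. These rates count contacts, and contacts of 1 locus are not independent. On chromosome 14 the 274 contacts, from 864 baits, formed 71 loci, and the largest held 63. Chromosome 4 had 345 contacts in 121 loci from 1275 baits. Density was the number of genes divided by the coordinate where the last gene ends, so long gene-free stretches count as length. By this measure chromosomes 19 and 17 were also the densest in genes, with 24.8 and 14.1 per Mb. Chromosome 14 had 5.73 and chromosome 4 had 4.05. Chromosome 22 had 8.88 genes per Mb, beside 9.48 on chromosome 16 and 9.68 on chromosome 11, which had 17.9 and 9.21 contacts per 100 baits. Density over the gene-bearing part alone was not computed, so the order of these chromosomes in density is not known. The share of listed long pairs that recurred was 21.5% on chromosome 14 and 2.37% on chromosome 19.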

How the data were processed

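Poised-enhancer capture Hi-C was measured in 45 libraries, 15 per condition. Each deposited value is a CHiCAGO score of a fragment pair, pooled by the authors over the libraries of a condition, per the labels, and no common scale was set across the columns. The build is GRCh38, per the submitters' processing notes, while for aligner and caller the versions are not given in the sources used here. Read numbers were unknown, so no depth, floor or read-based interval is given.

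A pair was called at a score of 5. The table listed no pair with a highest score under 5, so a pair never called has no value. Baits were DpnII fragments and other ends were bins of about 5 kb, with a median of 5301 bp among the members. Genes came from RefSeq (GRCh38.p14, protein-coding) and were assigned within 1000 bp of either annotated end, since that table gives no strand. The 9 gene lists were all matched by symbol. Neighbouring pairs had both ends within 10 kb, and loci were formed by single linkage over the same distance.

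The members and the lists were chosen with earlier results of these data known. Named contacts were the strongest of the 15 loci with the highest mean score, the 2 strongest per list, the 3 strongest per 2-profile pattern with the third score under 1, and the 5 baits with most members. Loci named for their number of contacts, the HOXD genes by side and contacts with gene ends at both ends were chosen after their values were seen. Some contacts that these rules name are not reported here. With 1 pooled column per condition nothing was tested between conditions. Functions were tested on simulated data. Alternatives were score thresholds, 2 scalings, distance limits, leaving out the 1% of baits with most listed pairs, 1 contact per locus, and other widths for gene ends and neighbours. Equal numbers of long calls and neighbours from another bait only were added after seeing the data. Python 3.11.15, numpy 2.4.6, pandas 2.3.3, scipy 1.17.1 and matplotlib 3.10.9 were used.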

Additional observations from a re-analysis of the deposited data

How the results depend on the processing

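The thresholds set the number of members. At a score of 7 there were 1392 contacts in 529 loci, with left-out shares of 69.8% for UNC6852, 63.6% for UNC1999 and 59.5% for DMSO and a developmental gene in 8.84%. At a score of 10 there were 464 contacts in 181 loci, with left-out shares of 73.3%, 64.9% and 60.3%, a gene end at the other end in 12.1%, a developmental gene in 9.05% and a neighbouring pair in 91.4%. From 1 to 2 Mb there were 381 contacts in 180 loci, with 53.0%, 48.2% and 49.7%, a gene end at the other end in 6.56% and a developmental gene in 12.9%. Quantile-normalized scores gave 53.6% for UNC1999 and 58.5% for DMSO. Without the 1% of baits with most listed pairs the left-out shares were 59.2%, 53.4% and 51.4%. With 1 contact per locus they were 56.9%, 48.2% and 48.2%, with a developmental gene in 4.81% and a neighbouring pair in 84.3%. Gene ends within 0 bp gave 5.91% of other ends with one and 2.34% of contacts with a developmental gene, and within 5000 bp these were 16.8% and 18.4%. A neighbouring pair was present in 89.1% within 5 kb, in 97.2% within 25 kb and in 79.8% when it had to come from another bait. The cause of these shifts was not tested, other than that fewer or more fragments qualify by construction. Of 74 alternative values, the other 36 stayed within the exact interval of the reported share or within 1.5 times the reported count. UNC6852 had the highest left-out share in every alternative that could change these shares. Other widths for gene ends and neighbours, and neighbours from another bait only, leave the shares unchanged by construction, so they are no check on this order. Within a setting the shares have the same numerator, the contacts called in all profiles. Their order therefore only restates the sizes of the overlaps between pairs of profiles.

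No paired analysis was possible because each column is pooled over the replicates of its condition, and leaving out a replicate was not possible on such columns. Depth is unknown, and depth and treatment cannot be told apart in any comparison between profiles. Contacts of 1 locus overlap, so intervals over contacts are too narrow.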

Other observations

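Several loci outside the gene lists joined named genes over long distances. JUN, a subunit of the AP-1 transcription factor, met the body of FGGY in 15 contacts over 964 to 1020 kb. The strongest scored 22.4 in UNC6852, 16.7 in UNC1999 and 12.6 in DMSO. CA3, a carbonic anhydrase gene, met PSKH2 in 23 contacts. Of these, 18 were called in UNC6852, 21 in UNC1999 and 20 in DMSO, beside 81.17%, 76.01% and 73.85% of all members. CPN2 had a locus of 24 contacts seen from both sides, 10 of them called in all 3 profiles. In a locus at SAMD5 the strongest contact scored 7.37 in UNC6852, 19.7 in UNC1999 and 1.49 in DMSO, and the 17 contacts of that locus had medians of 6.29, 6.32 and 5.77.

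Contacts with a gene end at both ends included ACO1, the cytosolic aconitase, with APTX, a DNA repair gene. They scored 15.6 in UNC6852, 13.4 in UNC1999 and 10.1 in DMSO over 587 kb, and 2 neighbouring baits of ACO1 met the same fragment in all 3 profiles. CDKN2C, an inhibitor of cyclin-dependent kinases, met FAF1 over 541 kb with 9.49, 8.81 and 15.3. NETO2 met ABCC11 over 1022 kb with 9.73, 15.2 and 10.6. HOXA9 met SNX10 over 789 kb, across 8 genes, with 8.59 in UNC6852, 5.18 in UNC1999 and 6.97 in DMSO. The precursor of miR-10b, which lies within the HOXD cluster, stood in the other end of 1 recurring contact over 505 kb.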
